A study of Homo sapiens with 18 samples.

Results

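The nuclear-encoded subunits of the mitochondrial respiratory chain were followed in 16D, a castration-resistant prostate cancer line derived from LNCaP cells. Members were all gene symbols of the NDUF, SDH, UQCR, COX4 to COX8 and ATP5 families, with CYC1 and CYCS, and pseudogene symbols were left out. The rule took 87 of 26863 named nuclear symbols: 37 of complex I, 4 of complex II, 10 of complex III, 16 of complex IV, 19 of complex V and the carrier CYCS. NDUFA4, a subunit of complex IV despite its name, was counted there. COX4I2 and COX6A2 were not analysed here.

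Every group, the vehicle controls included, had received Cas9 together with a guide RNA by lentiviral infection. The 6 groups were OGDHL guide 1 in enzalutamide, OGDHL guide 2 in enzalutamide, the control guide (AAVS) in enzalutamide, guide 1 in vehicle, guide 2 in vehicle and the control guide in vehicle. Enzalutamide, an inhibitor of the androgen receptor, was given at 10 µM and the vehicle was DMSO, each for 6 weeks. Each group held 3 libraries, 18 in all. The labels do not tie replicates to separate cultures, so the p-values rest on differences among libraries that may be technical, nor do they say whether infected cells were cloned or pooled. OGDHL encodes a relative of OGDH, the first subunit of the 2-oxoglutarate dehydrogenase complex.

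Complex I takes electrons from NADH, and complex II takes them from succinate and is also an enzyme of the TCA cycle. Both hand electrons to coenzyme Q, complex III passes them to cytochrome c, and complex IV reduces oxygen. The proton gradient built by complexes I, III and IV drives complex V, the ATP synthase. Complexes I, III, IV and V also contain subunits encoded by mitochondrial DNA, whereas every subunit of complex II is nuclear. Many nuclear subunit genes are known targets of NRF1 and of ETS factors such as GABPA.

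Promoters of 3 members with large differences between groups were read from RefSeq, from 250 bases before to 50 bases after the start, on GRCh38.p14. NDUFB4 (chr3:120596086-120596385, plus strand) differed most between enzalutamide and vehicle in control cells and between guide 1 and the control guide in enzalutamide. CYCS (chr7:25125211-25125510, minus strand) had the second-largest called difference in both comparisons. ATP5MC1 (chr17:48892537-48892836, plus strand) differed most between the libraries labelled guide 2 in vehicle and the control guide. Capitals mark matches on either strand to an NRF1-type motif, GCGC then any base then TGCGC.
NDUFB4: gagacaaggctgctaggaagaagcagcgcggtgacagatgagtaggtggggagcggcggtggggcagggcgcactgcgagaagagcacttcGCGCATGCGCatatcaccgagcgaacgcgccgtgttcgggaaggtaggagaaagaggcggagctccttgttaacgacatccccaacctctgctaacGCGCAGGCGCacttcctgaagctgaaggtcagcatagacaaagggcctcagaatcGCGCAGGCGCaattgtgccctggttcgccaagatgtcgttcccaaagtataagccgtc
CYCS: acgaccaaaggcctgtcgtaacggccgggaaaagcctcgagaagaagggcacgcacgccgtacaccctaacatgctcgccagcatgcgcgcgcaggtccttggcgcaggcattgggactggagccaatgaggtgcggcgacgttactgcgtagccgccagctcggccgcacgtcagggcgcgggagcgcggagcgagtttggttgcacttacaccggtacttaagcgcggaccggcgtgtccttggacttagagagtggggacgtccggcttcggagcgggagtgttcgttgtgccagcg
ATP5MC1: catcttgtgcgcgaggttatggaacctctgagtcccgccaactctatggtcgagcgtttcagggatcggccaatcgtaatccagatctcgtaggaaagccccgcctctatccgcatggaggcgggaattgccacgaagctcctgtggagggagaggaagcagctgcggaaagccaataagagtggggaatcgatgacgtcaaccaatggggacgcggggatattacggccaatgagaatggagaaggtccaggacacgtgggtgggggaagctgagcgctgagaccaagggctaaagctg
The motif occurred 3 times in the NDUFB4 window and in neither of the other windows.

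Over all members, 70 of 87 symbols matched the promoter table, with 83 promoters. On either strand, the NRF1-type motif was found in 17 of the 83 member promoters (20.5%) and in 5.78% of all 35116 promoters in the table. Its form with A as the free base, which these counts include, was found in 4 member promoters (4.82%) and in 1.24% of all. The ETS-type letters CCGGAAG were found in 22 member promoters (26.5%) and in 10.3% of all, and a YY1-type motif in 4 (4.82%) and in 0.849% of all. These are matches of letters in a window, not measured binding.

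The deposited values were TPM, which keep no record of depth, so the depth was unknown. Rows encoded by mitochondrial DNA held 50.1% to 73.8% of the deposited TPM of a library and were removed, and the remaining rows were rescaled to 1000000 per library. These values are called nuclear TPM. In bulk RNA, fewer cells expressing a gene and less of its RNA per cell cannot be told apart. Before any comparison, the libraries labelled guide 2 in vehicle have to be set apart. They correlated with the other libraries at 0.887 to 0.920, against 0.950 to 0.996 among the others, and had 1407 to 1630 rows at 0, against 3042 to 4498. Their level of NEAT1, a nuclear long noncoding RNA, was 650.4 ± 59.8 nuclear TPM, against 192 ± 12.3 in the control libraries in vehicle (SD, n = 3 each). The guide 1 vehicle libraries also differed among themselves. Replicates 1 and 2 had 73.8% and 69.9% mitochondrial TPM, above the 50.1% to 62.3% of the other groups, and replicate 3, with 57.2%, lay within that range. Replicate 3 correlated with the control vehicle libraries at 0.995 to 0.996, and with replicates 1 and 2 at 0.978 and 0.988. Results that depend on replicate 3 are given with and without it. Comparisons that use the libraries labelled guide 2 in vehicle have no value without them, and the others were also fitted without them.

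OGDHL, the targeted gene, had 2.56, 2.62 and 2.30 nuclear TPM with guide 1 and 4.14, 4.33 and 4.35 with guide 2 in enzalutamide, against 7.63, 7.85 and 7.43 with the control guide. In vehicle it had 1.93, 2.29 and 3.16 with guide 1 and 6.17, 7.31 and 6.54 in the libraries labelled guide 2, against 4.68, 4.86 and 4.62 with the control guide. Both guides were thus lower than control in enzalutamide, and guide 1 was lower in vehicle. The libraries labelled guide 2 in vehicle were higher, against their label (log2 change 0.42 ± 0.094 SE, limma adjusted p = 0.00088). On TPM as deposited they had 3.08, 3.36 and 2.64, against 2.17, 2.17 and 2.11 with the control guide. Median-of-ratios scaling divides them by 1.181 to 1.263 and the control vehicle libraries by 0.941 to 0.988, so the gap narrows there. The OGDHL test on that scaling is not reported here. All 8 prostate luminal markers were expressed, and no basal, endothelial or leukocyte marker reached 1 nuclear TPM in 3 libraries. Of 4 fibroblast markers 2 did, with a list sum of at most 18.8 nuclear TPM in any library.

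Levels ran over several orders of magnitude among the members. On the per-length nuclear TPM scale, the mean over the 18 libraries ran from 2.17 (NDUFS4, an accessory subunit near the NADH site) to 604 (NDUFB10, of the membrane arm) in complex I, with a median of 32.0. In complex V it reached 1084 for ATP5F1B, the catalytic beta subunit, with a median of 108. Complex II had the lowest median, 23.8, and ran from 14.8 for its iron-sulphur subunit SDHB to 33.1 for its flavoprotein SDHA. Complex III ran from 58.5 (UQCR11) to 525 (UQCRQ), both small subunits, and CYCS, cytochrome c, averaged 401. Complex IV ran from 0.0770 (COX7B2) to 621 (COX7C), also small subunits.

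Where complex IV has tissue or testis isoforms, the widely expressed one held nearly all of the signal. COX7A2 made up 99.6% or more of the COX7A1 and COX7A2 sum in every library, COX8A 99.6% or more of COX8A and COX8C, and COX6B1 99.4% or more of COX6B1 and COX6B2. Of the 87 members, 84 reached 1 nuclear TPM in at least 3 libraries and were tested. COX6B2, COX7A1 and COX7B2 did not, and COX8C passed only through the libraries labelled guide 2 in vehicle, where it had 1.67, 2.23 and 1.25 nuclear TPM. Rows named as pseudogenes of the members (111 rows) summed to 4540 to 6304 nuclear TPM per library, beside 9957 to 12166 for the members themselves, so reads of members with near-identical copies may be split. For NDUFA4, NDUFA5, NDUFB4, NDUFV2, ATP5MC2 and COX6A1, among others, the pseudogene rows held more than the gene itself in every group. UQCRHL, a near copy of UQCRH, held 79.6% to 85.2% of their joint sum, and both are uncertain for this reason.

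The first comparison asked how 6 weeks of enzalutamide changed the chain in control cells. Most members that differed were lower. Members held 1.06%, 1.01% and 1.00% of nuclear TPM in enzalutamide, against 1.22%, 1.22% and 1.21% in vehicle, with no overlap. Their sum averaged 10218 ± 306 nuclear TPM in enzalutamide and 12146 ± 27.5 in vehicle, a difference of -15.9%. Sums fell short of vehicle by different amounts: the difference was -18.2% for complex I, -18.1% for complex V, -13.9% for complex IV, -7.46% for complex III and -5.21% for complex II, where the libraries overlapped. These sums are descriptions and were not tested.

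**Figure D1:**
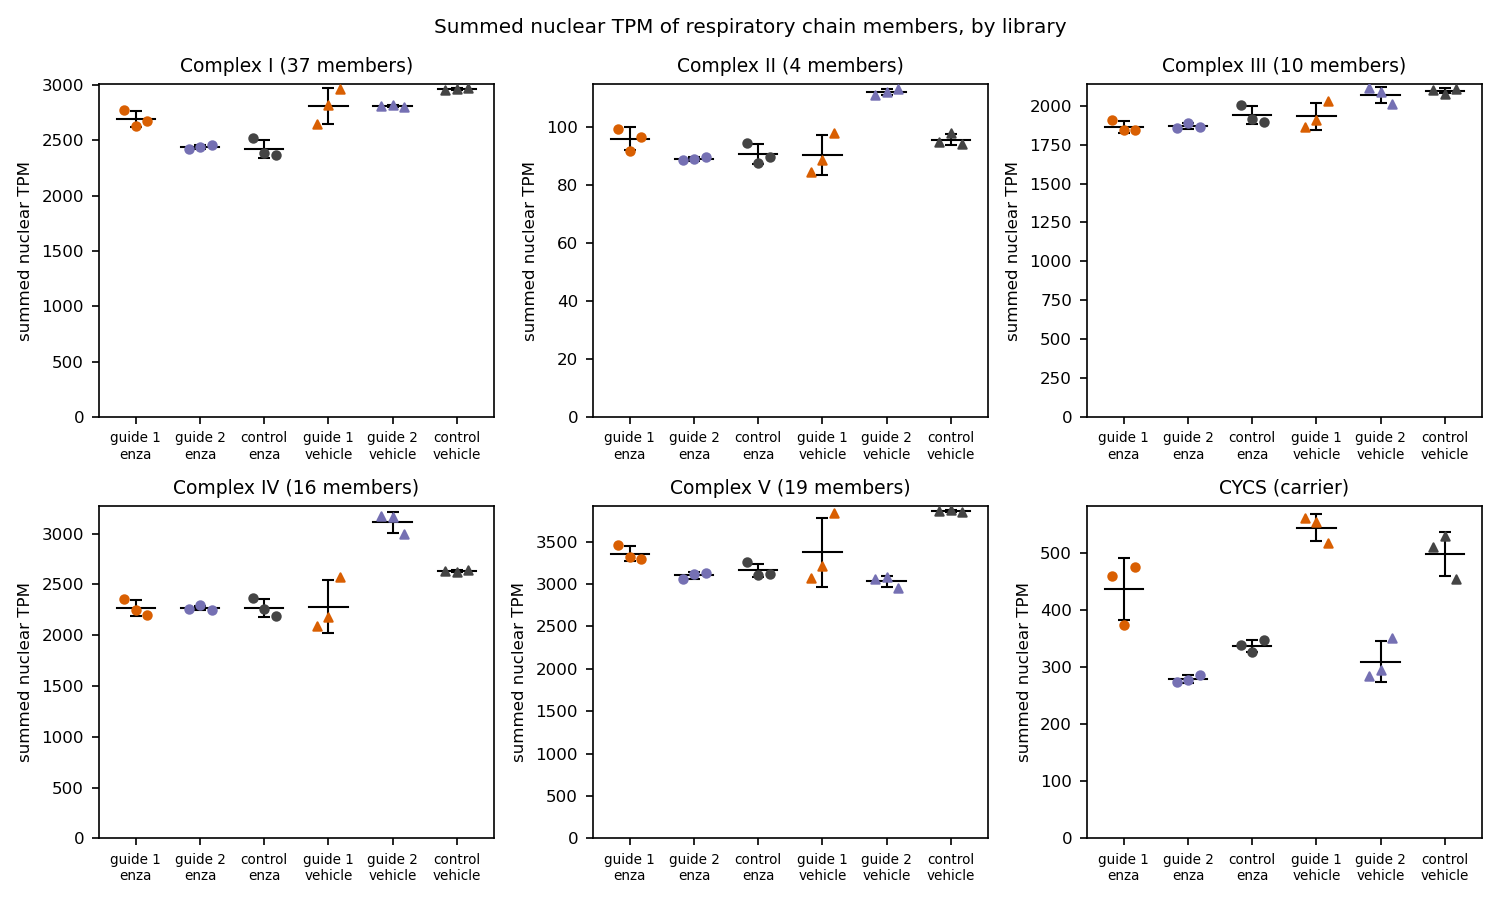
Summed nuclear TPM of the members of each complex (y axis, from 0) in each of the 18 libraries, by group (x axis). Circles are enzalutamide and triangles vehicle libraries, and lines and bars are the group mean ± SD (n = 3). In control cells the enzalutamide sums of complexes I, III, IV and V lie below the vehicle sums, and the guide 1 vehicle libraries spread most in complexes IV and V.

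By limma, 46 of 84 tested members were lower in enzalutamide and 3 were higher (adjusted p under 0.05), where 24.8% of all 16067 tested genes were lower and 23.1% higher, 47.9% in either direction. The median member change was -0.20 (log2), against -0.01 over all tested genes, and 73 of 84 members lay below that median. Lower calls covered 19 of 37 members of complex I, 2 of 4 of complex II, 4 of 10 of complex III, 8 of 13 of complex IV, 12 of 19 of complex V and CYCS. The 3 higher ones were NDUFB1, COX6C and ATP5IF1. Changes are differences in log2(nuclear TPM + 1), which understates the change of low genes.

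In complex I, core subunits were among the members that fell. NDUFV1, which binds NADH, had 193, 182 and 179 nuclear TPM in enzalutamide, against 233, 239 and 236 in vehicle (-0.36 ± 0.14 SE, limma adjusted p = 0.048). Its partner NDUFV2 averaged 20.5 in enzalutamide and 27.0 in vehicle (-0.38 ± 0.037, limma adjusted p = 8e-07). The NDUFV2 pseudogene row held far more, 503 in enzalutamide and 644 in vehicle, and whether these reads came from NDUFV2 was not tested. The iron-sulphur subunits NDUFS7 and NDUFS8 also fell, by 0.40 and 0.35 on the log2 scale. NDUFS1, the largest iron-sulphur subunit, had 32.3, 30.4 and 33.0 nuclear TPM in enzalutamide, against 30.0, 31.0 and 29.4 in vehicle, and was not called, nor was NDUFS3. NDUFS1 was called, with a positive change, without control enzalutamide replicate 2 (limma adjusted p = 0.039, range over all alternatives 0.039 to 0.91), and NDUFS3, with a negative one, without guide 1 vehicle replicate 3 (0.036, range 0.016 to 0.6). Leaving out single libraries ended the NDUFV1 call in 16 of 18 cases (limma adjusted p up to 0.12) and that of NDUFS7 in 5 of 18 (up to 0.11), in both cases including every vehicle control library, and enzalutamide control replicates 2 and 3.

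Among the 30 accessory subunits of complex I, which surround the core, 14 fell and 1 rose, with a median change of -0.14. NDUFB4, of the membrane arm, had 264, 250.0 and 255 nuclear TPM in enzalutamide, against 428, 434 and 437 in vehicle. The groups were far apart, and the change was the largest of any member (-0.75 ± 0.046 SE, limma adjusted p = 3.8e-09). NDUFB7 had 31.2, 25.9 and 28.6 in enzalutamide, against 40.8, 40.6 and 41.6 in vehicle (-0.51 ± 0.11, limma adjusted p = 0.0015). NDUFC1, chosen after its values were seen, had 9.50, 9.34 and 9.52 in enzalutamide, against 13.6, 13.8 and 13.6 in vehicle (-0.49 ± 0.028, limma adjusted p = 1.9e-09). NDUFAB1, the mitochondrial acyl carrier protein, averaged 36.2 in enzalutamide and 47.5 in vehicle (-0.38). NDUFB1 went the other way, with 69.2, 66.6 and 68.4 in enzalutamide, against 56.3, 55.4 and 56.9 in vehicle (0.27 ± 0.040, limma adjusted p = 4.9e-05).

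NDUFB4 has 7 pseudogene rows in the table, and these moved with it. They summed to 335 ± 7.61 nuclear TPM in control cells in enzalutamide, against 520.4 ± 29.7 in vehicle, more than the gene itself. Whether these reads came from NDUFB4 was not tested. With the pseudogene rows added to the gene, the change was -0.69 and still called.

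In complex II, the change was small. SDHB had 14.8, 14.2 and 14.4 nuclear TPM in enzalutamide, against 16.2, 16.7 and 16.6 in vehicle (-0.18 ± 0.030 SE, limma adjusted p = 0.00019). SDHD, a membrane anchor, averaged 21.7 in enzalutamide and 24.7 in vehicle (-0.18 ± 0.067, limma adjusted p = 0.041), a call lost in 7 of 18 fits that each left out 1 library (up to 0.17), namely control vehicle replicates 1 and 2, control enzalutamide replicates 2 and 3, guide 1 vehicle replicate 2 and guide 2 enzalutamide replicates 2 and 3. SDHA averaged 28.9 in enzalutamide and 31.7 in vehicle (-0.13, limma adjusted p = 0.073), and SDHC, the other anchor, 25.4 in enzalutamide and 22.5 in vehicle (0.17, limma adjusted p = 0.081), so neither was called. Without guide 1 vehicle replicates 1 or 3 both were called, SDHA at an adjusted p of 0.015 and 0.011 (range over all alternatives 0.0066 to 0.55) and SDHC at 0.022 and 0.0041 (0.0041 to 0.72). SDHA was also called without control enzalutamide replicate 1 (limma adjusted p = 0.042).

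In complex III, the Rieske iron-sulphur protein UQCRFS1 had 105, 99.4 and 102 nuclear TPM in enzalutamide, against 118, 122 and 121 in vehicle (-0.23 ± 0.034 SE, limma adjusted p = 4.4e-05). The core protein UQCRC2 averaged 64.9 in enzalutamide and 74.4 in vehicle (-0.19), and the small subunit UQCR10 averaged 159 in enzalutamide and 212 in vehicle (-0.42). Cytochrome c1, encoded by CYC1, had 458, 412 and 407 in enzalutamide, against 477, 467 and 479.5 in vehicle, and was not called (-0.16, limma adjusted p = 0.34). CYCS had 338, 327 and 348 nuclear TPM in enzalutamide, against 509.6, 530.3 and 455 in vehicle. The groups did not overlap, and CYCS fell by 0.56 on the log2 scale (± 0.090 SE, limma adjusted p = 0.00012).

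In complex IV, 8 of 13 tested members fell, with a median change of -0.24. COX6B1 averaged 60.3 nuclear TPM in enzalutamide and 78.1 in vehicle (-0.37), and the other lower members included COX5A (-0.36), COX7B (-0.33) and COX6A1 (-0.25). COX4I1, the regulatory subunit, had 248, 239 and 229 in enzalutamide, against 283, 281 and 282 in vehicle (-0.24 ± 0.038 SE, limma adjusted p = 8.7e-05). COX8A was not called, with 459, 414 and 390.0 in enzalutamide, against 534, 518 and 542 in vehicle (-0.34 ± 0.20, limma adjusted p = 0.19). Its shared estimate of spread includes guide 1 vehicle libraries at 216, 307 and 506 nuclear TPM, and COX8A was called without replicate 3 or replicate 1 of them (limma adjusted p = 0.015 and 0.049, range over all alternatives 0.0026 to 0.43). COX6C rose, with 42.1, 41.1 and 40.0 in enzalutamide, against 37.3, 35.1 and 36.9 in vehicle (0.17 ± 0.044, limma adjusted p = 0.0055). NDUFA4 averaged 68.3 in enzalutamide and 71.0 in vehicle and was not called, beside 779.7 and 740.0 in its pseudogene row.

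In complex V, 3 of the 5 subunits of the catalytic head fell: ATP5F1B, with a mean of 1053 nuclear TPM in enzalutamide and 1292 in vehicle (-0.30 ± 0.098 SE, limma adjusted p = 0.022), the shaft subunit ATP5F1C (-0.26), and ATP5F1D (-0.43). ATP5F1A, the alpha subunit, was not called (-0.16, limma adjusted p = 0.061), but was without guide 1 vehicle replicates 1 or 3 (0.02 and 0.00074, range over all alternatives 0.00074 to 0.51). The ATP5F1B call was lost without vehicle replicates 2 or 3 or enzalutamide replicates 2 or 3 of the control guide (limma adjusted p up to 0.063). The c-ring that turns with proton flow is encoded by ATP5MC1, ATP5MC2 and ATP5MC3, which give the same mature protein. ATP5MC3 averaged 192 ± 6.73 in enzalutamide, against 279.9 ± 2.26 in vehicle (-0.54 ± 0.14, limma adjusted p = 0.0046). ATP5MC1 had 198, 185 and 186 in enzalutamide, against 267, 268 and 273 in vehicle (-0.50 ± 0.10, limma adjusted p = 0.00088), while ATP5MC2, the least abundant, was not called (-0.30). Without guide 1 vehicle replicate 3 ATP5MC2 was called (limma adjusted p = 0.01, range over all alternatives 0.001 to 0.4).

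The remaining 11 members of complex V, of the stalk and the membrane part, had 7 lower calls and 1 higher call. The largest falls there were those of ATP5ME (444 in enzalutamide and 589 in vehicle, -0.41), ATP5PF (-0.40) and ATP5MF (-0.38), named after their values were seen. ATP5IF1, which inhibits the enzyme when it runs in reverse, had 129, 128 and 128 nuclear TPM in enzalutamide, against 109.5, 112 and 110.3 in vehicle. It did not overlap between groups (0.22 ± 0.081 SE, limma adjusted p = 0.040), but the call was lost in 10 of 18 fits that each left out 1 library (up to 0.093), namely each of the 6 control libraries, guide 1 enzalutamide replicate 1 and each guide 2 enzalutamide replicate, and with median-of-ratios scaling (0.11).

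**Figure D2:**
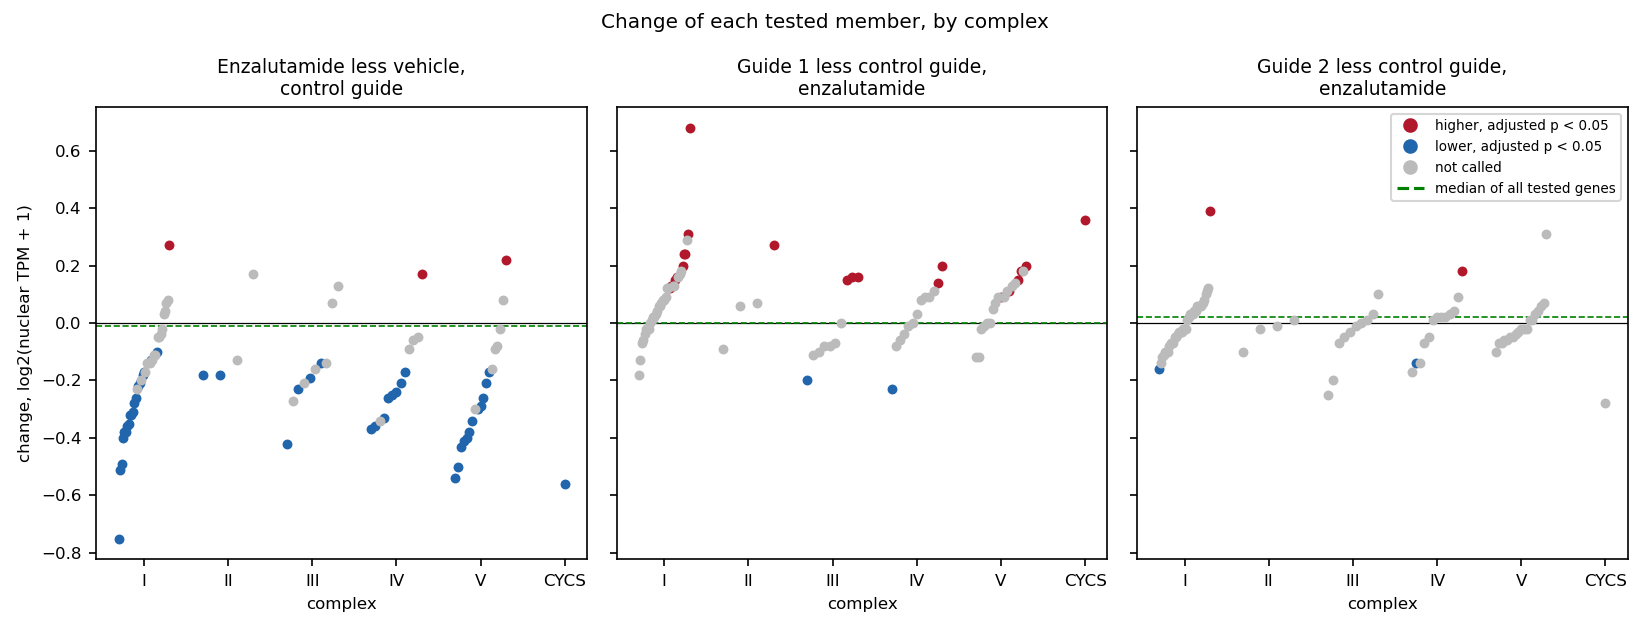
Change in log2(nuclear TPM + 1) of each tested member (y axis), by complex (x axis), in 3 comparisons. Red points were higher and blue points lower at a limma adjusted p under 0.05, grey points were not called, and the dashed line is the median of all tested genes. NDUFB4 is the lowest point in the left panel (-0.75) and the highest in the middle (0.68) and right (0.39) panels.

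The count of calls depended on scale. On TPM as deposited, where the mitochondrial rows took 50.3% to 60.2% of the enzalutamide control libraries and 53.6% to 55.4% of the vehicle ones, 8 members were lower and 0 higher, beside 11.6% of all genes lower and 9.28% higher, and the median member change was -0.24. A fit of the 6 control libraries alone called 61 lower and 6 higher, where 31.5% of all genes were lower and 27.8% higher.

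Genes that serve the chain were counted from lists chosen with earlier results known, and the counts stand beside the 24.8% of all tested genes that were lower and the 23.1% that were higher. Of 17 complex I assembly factors tested, 9 fell and 2 rose, with a median change of -0.15. ECSIT averaged 7.92 nuclear TPM in enzalutamide and 11.1 in vehicle (-0.44), while TMEM126B of the same assembly complex averaged 40.2 in enzalutamide and 31.2 in vehicle (0.36). Of 25 complex IV factors 9 fell and 2 rose: CMC2 (-0.82) and PET117 (-0.52) fell, and COX20 (0.46) rose. Of 6 complex III factors 1 fell, UQCC2, which acts in cytochrome b synthesis, with 20.4 ± 0.348 in enzalutamide and 38.6 ± 0.276 in vehicle (-0.89 ± 0.074 SE, limma adjusted p = 1.2e-07), and 2 rose, among them TTC19 (0.40). Of 5 complex V factors 3 rose and 0 fell, and 0 of 4 complex II factors was called by limma, with 0 at an unadjusted p under 0.05.

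Of 13 genes of coenzyme Q synthesis and handling, 7 fell and 1 rose. COQ8A (-0.58) and the methyltransferase COQ3 (-0.52) fell, whereas COQ10A, which binds coenzyme Q, rose to 21.2 ± 0.503 nuclear TPM in enzalutamide, against 11.6 ± 0.645 in vehicle (0.82). Of 11 tested transcriptional regulators 4 fell and 0 rose, a share of falls near that of all genes, among them the coactivators PPARGC1B (-0.59) and PPRC1 (-0.25) and the nuclear receptor ESRRA (-0.56). On deposited TPM, 1 of 13 mitochondrially encoded subunits was called, MT-ND3, with a mean of 15858 TPM in enzalutamide and 11798 in vehicle (0.43, limma adjusted p = 0.011). The prostate luminal list summed to 2475 to 2659 nuclear TPM in enzalutamide and 3425 to 3528 in vehicle, and its part in the member changes was not tested.

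The next comparison set guide 1 against the control guide in enzalutamide, where OGDHL was lowest relative to its control. Members that differed were mostly higher with guide 1: 21 of 84 rose and 2 fell, where 16.3% of all tested genes rose and 14.3% fell, 30.6% in either direction. The median member change was 0.08, against 0.00 over all genes. The complex I sum averaged 2691 ± 75.7 nuclear TPM with guide 1 and 2423 ± 81.8 with the control guide, with no overlap. Much of that gap lay in NDUFB4 alone, which averaged 410.4 with guide 1 and 256 with the control guide. NDUFB4 held 395 of the complex I sum of 2627 in guide 1 replicate 2, and 264 of 2517 in control replicate 1. Without NDUFB4 the complex I sums therefore overlapped between the groups. They were not tested. The complex V sum differed by 6.29% and did not overlap, whereas complexes II, III and IV overlapped. This comparison shares the control libraries in enzalutamide with the drug comparison in control cells.

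NDUFB4 had 434, 395 and 402 nuclear TPM with guide 1, against 264, 250.0 and 255 with the control guide, both in enzalutamide. All guide 1 libraries were above all controls (0.68 ± 0.046 SE, limma adjusted p = 4.8e-08, and 0.73 with pseudogene rows added). Its pseudogene rows summed to 573 ± 44.0 with guide 1 and 335 ± 7.61 with the control guide. CYCS had 459, 374 and 476 with guide 1, against 338, 327 and 348 with the control guide (0.36 ± 0.090, limma adjusted p = 0.0067). NDUFB3 of complex I had 41.3, 40.2 and 44.4 with guide 1 and 33.7 in each control library (0.31 ± 0.061, limma adjusted p = 0.0015).

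SDHD had 27.7, 23.6 and 27.7 nuclear TPM with guide 1, against 22.6, 20.8 and 21.7 with the control guide (0.27 ± 0.067 SE, limma adjusted p = 0.0067), but with its 4 pseudogene rows added the change was 0.13 and not called (0.27, range over all alternatives 0.0011 to 0.64). NDUFC1 (0.24) and NDUFV2 (0.24), named after their values were seen, were also higher. Among the rest, UQCRC2 (0.16), UQCRFS1 (0.16), ATP5F1C (0.18) and COX7A2L, a factor of supercomplex assembly (0.20), rose. With its pseudogene rows added the UQCRFS1 change was 0.05 and not called (limma adjusted p = 0.81, range over all alternatives 0.00092 to 0.91). COX6C, with 35.5, 33.1 and 35.9 with guide 1 and 42.1, 41.1 and 40.0 with the control guide, fell by 0.23 on the log2 scale (± 0.044, limma adjusted p = 0.001). UQCRQ fell by 0.20 (limma adjusted p = 0.028), a call lost without control replicates 1 or 2 or guide 1 replicates 2 or 3 in enzalutamide (up to 0.095).

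On TPM as deposited no member was called in this comparison, where 2.15% of all genes were higher and 4.91% lower by limma, and 2 members had an unadjusted p under 0.05. NDUFB4 had 0.57 there (limma adjusted p = 0.054). Without guide 1 vehicle replicate 3, 32 members were higher and 4 lower, where 21.4% of all genes were higher and 18.9% lower. The prostate luminal list summed to 5807 to 6233 nuclear TPM with guide 1 and 2475 to 2659 with the control guide. KLK3, an androgen receptor target that encodes prostate-specific antigen, averaged 2030 ± 102 with guide 1 and 132 ± 5.33 with the control guide. The part of this shift in the member changes was not tested.

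Of the supporting lists, beside 16.3% of all tested genes higher and 14.3% lower, 8 of 25 complex IV factors rose with guide 1 in enzalutamide and 0 fell, among them CMC2 (0.50) and PET117 (0.44). Complex I factors had 4 rises and 1 fall among 17. UQCC2 averaged 28.7 ± 0.820 nuclear TPM with guide 1 and 20.4 ± 0.348 with the control guide (0.48), and COQ3 10.1 with guide 1 and 7.31 with the control guide (0.42). COQ10A fell, with 15.5 ± 0.786 with guide 1 and 21.2 ± 0.503 with the control guide (-0.43). Of the 13 mitochondrially encoded subunits 0 was called on deposited TPM by limma, and 0 had an unadjusted p under 0.05.

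With guide 2 in enzalutamide, few members differed from the control guide: 2 rose and 2 fell, where 8.97% of all tested genes rose and 5.02% fell, and the median member change was -0.02, against 0.02 over all genes. NDUFB4 had 337, 335 and 334 nuclear TPM with guide 2, against 264, 250.0 and 255 with the control guide (0.39 ± 0.046 SE, limma adjusted p = 5.3e-05). Guide 2 thus lay between guide 1 and the control guide for NDUFB4, and the NDUFB4 pseudogene rows summed to 442 ± 13.4 with guide 2. COX7A2L averaged 8.24 ± 0.212 with guide 2 and 7.16 ± 0.263 with the control guide (0.18 ± 0.034, limma adjusted p = 0.0023).

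NDUFB9 (-0.16, limma adjusted p = 0.034) and COX6C (-0.14, 0.048) fell with guide 2 in enzalutamide. Leaving out any 1 of the 6 libraries compared ended both calls (limma adjusted p up to 0.14 and 0.16), with 2 members called in each fit. The share of all genes in those fits is not reported here. Without guide 1 vehicle replicate 3, 12 members and 20.3% of all genes were called. Over the fits that each left out 1 library, the COX6C call was lost in 14 of 18. CYCS had 273, 277 and 286 nuclear TPM with guide 2, against 338, 327 and 348 with the control guide. It did not overlap and was not called (-0.28 ± 0.090 SE, limma adjusted p = 0.057, range over all alternatives 0.0031 to 0.3), though it was without guide 1 vehicle replicate 3 (0.045), guide 2 vehicle replicate 3 (0.035) or guide 1 enzalutamide replicate 2 (0.023). With median-of-ratios scaling 2 members rose and 5 fell, where 9.17% of all genes rose and 7.98% fell. With TPM as deposited 0 members were called by limma and 2 had an unadjusted p under 0.05, where 0.678% of all genes were higher and 0.574% lower. The fit of the 6 libraries alone called 3 higher and 10 lower, where 14.3% of all genes were higher and 10.0% lower.

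**Figure D3:**
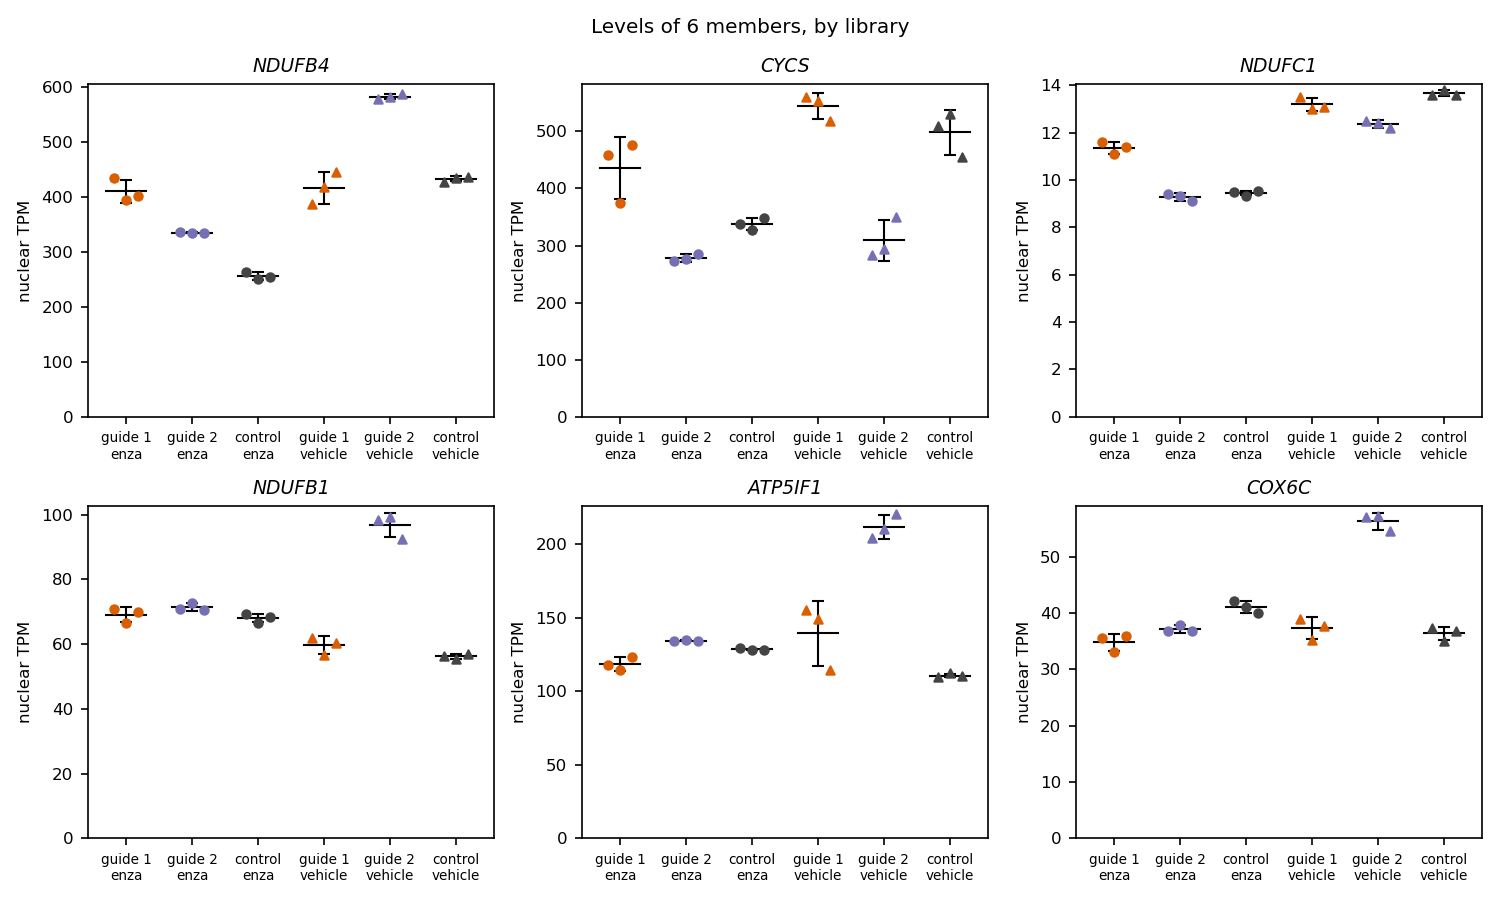
Nuclear TPM of 6 members (y axis, from 0) in each of the 18 libraries, by group (x axis). Circles are enzalutamide and triangles vehicle libraries, and lines and bars are the group mean ± SD (n = 3). NDUFB4 with the control guide in enzalutamide (264, 250.0 and 255) is lower than in any other group, and NDUFB1, ATP5IF1 and COX6C are highest in the libraries labelled guide 2 in vehicle.

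Within guide 1, 9 members rose in enzalutamide and 23 fell, where 19.5% of all tested genes rose and 23.3% fell, 42.8% in either direction, and the median member change was -0.01. With median-of-ratios scaling 13 rose and 14 fell, where 23.9% of all genes rose and 23.0% fell. With TPM as deposited 10 rose and 0 fell, where 26.3% of all genes rose and 3.54% fell and their median was 0.23. Each of the 23 falls on nuclear TPM was above 0 on TPM as deposited. In place of 32 calls, 21 were made without guide 1 vehicle replicate 1 or guide 1 enzalutamide replicate 2, where 39.2% and 35.7% of all genes were called, and 56 without guide 1 vehicle replicate 3, where 58.5% were. NDUFB4 had 434, 395 and 402 nuclear TPM in enzalutamide, against 387, 419 and 445 in vehicle, an overlap (-0.02, limma adjusted p = 0.73). NDUFB10 fell by 0.32 on the log2 scale (limma adjusted p = 6.2e-05) and COX6A1 by 0.27 (4.1e-05), but both were above 0 on TPM as deposited (0.02 and 0.07, limma adjusted p = 0.91 and 0.74).

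CYCS had 459, 374 and 476 nuclear TPM in enzalutamide, against 561, 554 and 518 in vehicle, both with guide 1 (-0.33 ± 0.090 SE, limma adjusted p = 0.0097), and 0.02 on TPM as deposited. That call was lost without guide 1 enzalutamide replicate 2 (-0.22, limma adjusted p = 0.052, range over all alternatives 0.0048 to 0.92). The largest rises, of NDUFB11, NDUFA4, NDUFS3 and NDUFA8, by 0.44, 0.42, 0.42 and 0.30, rested on guide 1 vehicle replicates 1 and 2: with replicate 3 as the only vehicle library they were -0.01, 0.04, -0.04 and 0.03. The NDUFB11 call was lost without guide 1 vehicle replicates 1 or 2 or enzalutamide replicate 1 (limma adjusted p up to 0.069), and that of NDUFS3 without any of these or enzalutamide replicate 2 (up to 0.11). UQCRB fell by 0.32, was 0.09 with replicate 3 as the only vehicle library, and lost its call in 17 of 18 fits that each left out 1 library, all but guide 1 vehicle replicate 3 (up to 0.23). A fit of the 6 guide 1 libraries alone called 0 higher and 5 lower, where 8.37% of all genes were higher and 12.6% lower. Of the 13 mitochondrially encoded subunits 4 fell and 0 rose on deposited TPM, and NEAT1 and MALAT1 also fell, by 0.66 and 0.54 on nuclear TPM.

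Within guide 2, 8 members rose and 47 fell in enzalutamide against the libraries labelled guide 2 in vehicle, where 23.0% of all tested genes rose and 49.7% fell, 72.6% in either direction. The median member change of -0.20 equalled that of all genes. With median-of-ratios scaling, which shifted the median of all genes by 0.25, 31 rose and 18 fell, where 39.1% of all genes rose and 32.8% fell. On that scaling 17 of the 47 falls were above 0, and 4 members were called in opposite directions. On TPM as deposited 1 rose and 33 fell, where 11.2% of all genes rose and 48.3% fell. COX8C, which passed the filter only through those vehicle libraries, is among the falls, and without it 46 of 83 members fell.

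Whether the drug response differed between guides was tested as an interaction. For guide 1 against the control guide, the response was higher in 30 members and lower in 2, where 11.6% of all tested genes were higher and 15.2% lower, 26.8% in either direction, and the median member value was 0.19, against -0.01 over all genes. NDUFB4 had the largest positive value (0.73 ± SE 0.065, limma adjusted p = 1.7e-06), NDUFS3 had 0.59 and ATP5MC3 0.57. ATP5IF1 (-0.44) and COX6C (-0.26, but 0.11 on TPM as deposited) were the 2 negative ones. The NDUFS3 and ATP5MC3 calls were lost in 10 and 17 of 18 fits that each left out 1 library (limma adjusted p up to 0.09 and 0.11), and with guide 1 vehicle replicate 3 as the only guide 1 vehicle library their values were 0.13 and 0.09.

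The count of 32 interaction calls for guide 1 ran from 17 (without guide 1 vehicle replicate 2) to 56 (without guide 1 vehicle replicate 3), where 20.7% and 47.3% of all genes were called. It was 18 or 19 without each of the 3 control vehicle libraries, without control enzalutamide replicates 2 or 3 and without guide 1 enzalutamide replicate 1. How many of all genes were called in those fits is not reported here. The share of mitochondrial rows in deposited TPM was 73.8%, 69.9% and 57.2% in the guide 1 vehicle libraries, and on TPM as deposited 1 member was higher, NDUFB4, where 5.67% of all genes were higher and 1.27% lower. In the fit with guide 1 vehicle replicate 3 as the only guide 1 vehicle library 19 were higher and 2 lower, where 9.55% of all genes were higher and 15.7% lower. The part of the mitochondrial shares in the counts was not tested.

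For guide 2, the interaction was higher in 22 members and lower in 21, where 19.5% of all tested genes were higher and 43.7% lower, 63.2% in either direction. COX8C is among the lower ones, and without it there were 20. With median-of-ratios scaling the interaction was higher in 50 and lower in 8, where 35.3% of all genes were higher and 28.2% lower, and on TPM as deposited it was higher in 2 and lower in 8, where 8.71% of all genes were higher and 34.9% lower. The median member value was 0.02, against -0.20 over all genes. The largest values were those of ATP5MC1 (1.37), NDUFB10 (0.71) and ATP5F1D (0.67), and the lowest among members over 5 nuclear TPM those of ATP5IF1 (-0.86), COX6C (-0.75) and NDUFB1 (-0.70). All of these rest on the libraries labelled guide 2 in vehicle.

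The comparisons that do not use the libraries labelled guide 2 in vehicle were also fitted without those libraries, an alternative chosen after seeing the data. For enzalutamide in control cells 2 members were then higher and 42 lower, where 23.1% of all genes were higher and 24.4% lower. In guide 1 8 rose and 20 fell in enzalutamide, where 19.7% of all genes rose and 22.8% fell. Guide 1 in enzalutamide had 20 higher and 2 lower than the control guide (2450 and 2096 of 14985 genes), guide 2 in enzalutamide 2 higher and 1 lower (8.10% and 4.74% of all genes), guide 1 in vehicle 3 higher and 28 lower (19.6% and 8.21%), and the guide 1 interaction 20 higher and 2 lower (11.1% and 14.6%). Named calls that were lost were those of ATP5IF1, NDUFB9 and NDUFV1 for the drug in control cells, UQCRB for the drug in guide 1, NDUFA12 for guide 1 in vehicle, NDUFB9 and COX6C for guide 2 in enzalutamide, and NDUFS3 and ATP5MC3 for the guide 1 interaction, with limma adjusted p from 0.054 to 0.072. CYCS was called lower with guide 2 than with the control guide in enzalutamide (limma adjusted p = 0.044, range over all alternatives 0.0031 to 0.3).

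In vehicle, guide 1 was set against the control guide. By limma 5 members rose and 34 fell, where 21.1% of all tested genes rose and 11.1% fell, 32.2% in either direction. On TPM as deposited 0 rose and 77 fell, where 0.306% of all genes rose and 57.5% fell, the median of all genes was -0.32 and that of members -0.58. The count rested on replicates 1 and 2 of guide 1. COX8A had 216, 307 and 506 nuclear TPM with guide 1, against 534, 518 and 542 with the control guide (-0.72 ± 0.20 SE, limma adjusted p = 0.025). ATP5MC2, ATP5F1D and NDUFA4 fell by 0.62, 0.51 and 0.48, and in each of them replicate 3 was the guide 1 library nearest to control. ATP5MC2 has 4 pseudogene rows, which summed to 73.1 ± 4.81 nuclear TPM with guide 1 and 71.3 ± 0.465 with the control guide. The NDUFA4 pseudogene row averaged 613 with guide 1 and 740.0 with the control guide. Changes of ATP5MC2 and NDUFA4 with these rows added are not reported here. Other measures differed in the same comparison. Of the 13 mitochondrially encoded subunits 11 rose with guide 1 and 0 fell on deposited TPM, with a median change of 0.41. On nuclear TPM, MALAT1, like NEAT1 a long noncoding RNA kept in the nucleus, averaged 3295 ± 996 with guide 1 and 1562 ± 82.3 with the control guide (1.03 ± 0.18 SE, limma adjusted p = 0.0074), and NEAT1 288 ± 9.01 with guide 1 and 192 ± 12.3 with the control guide (0.59 ± 0.11, limma adjusted p = 0.011). Their part in the member changes was not tested.

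NDUFA5 of complex I had 49.6, 43.6 and 30.6 nuclear TPM with guide 1, against 29.3, 29.8 and 25.7 with the control guide (0.50 ± 0.14 SE, limma adjusted p = 0.026). UQCRB had 224, 191 and 135 with guide 1, against 139, 137 and 137 with the control guide (0.38), and ATP5IF1 155, 149 and 114 with guide 1, against 109.5, 112 and 110.3 with the control guide (0.32), but these were -0.11 and -0.17 on TPM as deposited. NDUFA12 rose by 0.18 and was -0.19 on TPM as deposited. No member was called without guide 1 replicates 1 or 2, without control replicates 1 or 3, or in a fit of the 6 libraries alone, while 59 were called without guide 1 replicate 3 and 20 without control replicate 2. The members at an unadjusted p under 0.05 by limma in those fits numbered 34, 42, 46, 41 and 11. All genes called in them made up 1.98%, 1.10%, 0.972%, 1.45% and 0, against 56.7% without guide 1 replicate 3 and 23.1% without control replicate 2. With guide 1 replicate 3 as the only guide 1 vehicle library 0 were called, and 2 had an unadjusted p under 0.05.

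The libraries labelled guide 2 in vehicle differed from the control guide in 27 members upward and 29 downward, where 50.9% of all tested genes rose and 24.0% fell, 74.9% in either direction. The median member change was -0.03, against 0.23 over all genes. Of all genes, 16067 passed the filter with these libraries and 14985 without them. Genes that passed only through these libraries thus stay in the shares and medians of all genes, here and in the other comparisons that use them. Their part in those values was not tested. With median-of-ratios scaling 11 rose and 58 fell, where 33.9% of all genes rose and 41.4% fell, and the median of all genes shifted by -0.29. On TPM as deposited 12 rose and 12 fell, where 41.0% of all genes rose (5500 of 13416) and 2420 genes fell. The complexes differed in direction on this scale but not with median-of-ratios scaling, where the median member change was -0.21 in complex IV and -0.58 in complex V, in place of 0.14 and -0.24. On nuclear TPM the complex IV sum averaged 3112 ± 101 nuclear TPM, against 2634 ± 8.51 with the control guide (18.1%), and the complex V sum 3031 ± 67.6, against 3859 ± 13.3 with the control guide (-21.5%). COX8C passed the filter only through these libraries and is among the rises, so that 26 of 83 members rose without it, and 10 with median-of-ratios scaling. Without COX8C, 7 of 12 members of complex IV rose and 1 fell, and within complex V 5 of 19 rose and 11 fell. Of the 13 mitochondrially encoded subunits 1 rose and 3 fell on deposited TPM. Of the called rises, 8 were below 0 with median-of-ratios scaling, those of COX4I1, COX7C, NDUFA4, NDUFC2, UQCR10, ATP5F1E, ATP5MG and ATP5MJ.

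All 3 c-ring genes fell, and ATP5MC1 had the largest fall of any member. It had 103, 105 and 105 nuclear TPM in the libraries labelled guide 2, against 267, 268 and 273 with the control guide (-1.36 ± 0.10 SE, limma adjusted p = 1.3e-08). ATP5MC3 had 181, 180.4 and 170.3, against 280.1, 282 and 278 with the control guide (-0.66). The ATP5MC1 share of the 3 c-ring genes was 35.3% ± 1.02 in the libraries labelled guide 2, against 47.1% ± 0.423 with the control guide. ATP5IF1 rose, with 204, 209.9 and 220.2, against 109.5, 112 and 110.3 with the control guide (0.93 ± 0.081, limma adjusted p = 6.5e-08), and ATP5F1D fell by 0.74. In complex II the subunits split. SDHA had 50.5, 51.3 and 50.5, against 31.3, 31.8 and 32.1 with the control guide (0.66 ± 0.057, limma adjusted p = 5.6e-08), and SDHB 12.1, 12.3 and 12.3, against 16.2, 16.7 and 16.6 with the control guide (-0.41 ± 0.030, limma adjusted p = 1.2e-08).

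SDHC rose by 0.34 on this scale and was 0.00 with median-of-ratios scaling (not called), while SDHD fell by 0.28. NDUFB1 (0.77) and NDUFA13 (0.67) rose in complex I, and NDUFB10 fell, with 401, 391 and 416 nuclear TPM in the libraries labelled guide 2, against 716, 718 and 735 with the control guide (-0.84). CYC1 fell by 0.73 and CYCS by 0.69 on the log2 scale. In enzalutamide, guide 2 cells had ATP5MC1 at 189, 189.6 and 195 and SDHA at 28.0, 28.3 and 29.1 nuclear TPM, levels near those of control cells in enzalutamide (198, 185 and 186 for ATP5MC1 and 30.5, 27.8 and 28.5 for SDHA). Within guide 2 in enzalutamide, ATP5MC1 rose by 0.87 and NDUFB10 by 0.40, and SDHA, NDUFB4, UQCR11 and COX7A2 fell by 0.81, 0.80, 0.79 and 0.77 against the libraries labelled guide 2 in vehicle. What set those vehicle libraries apart, and its part in these values, was not tested.

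**Figure D4:**
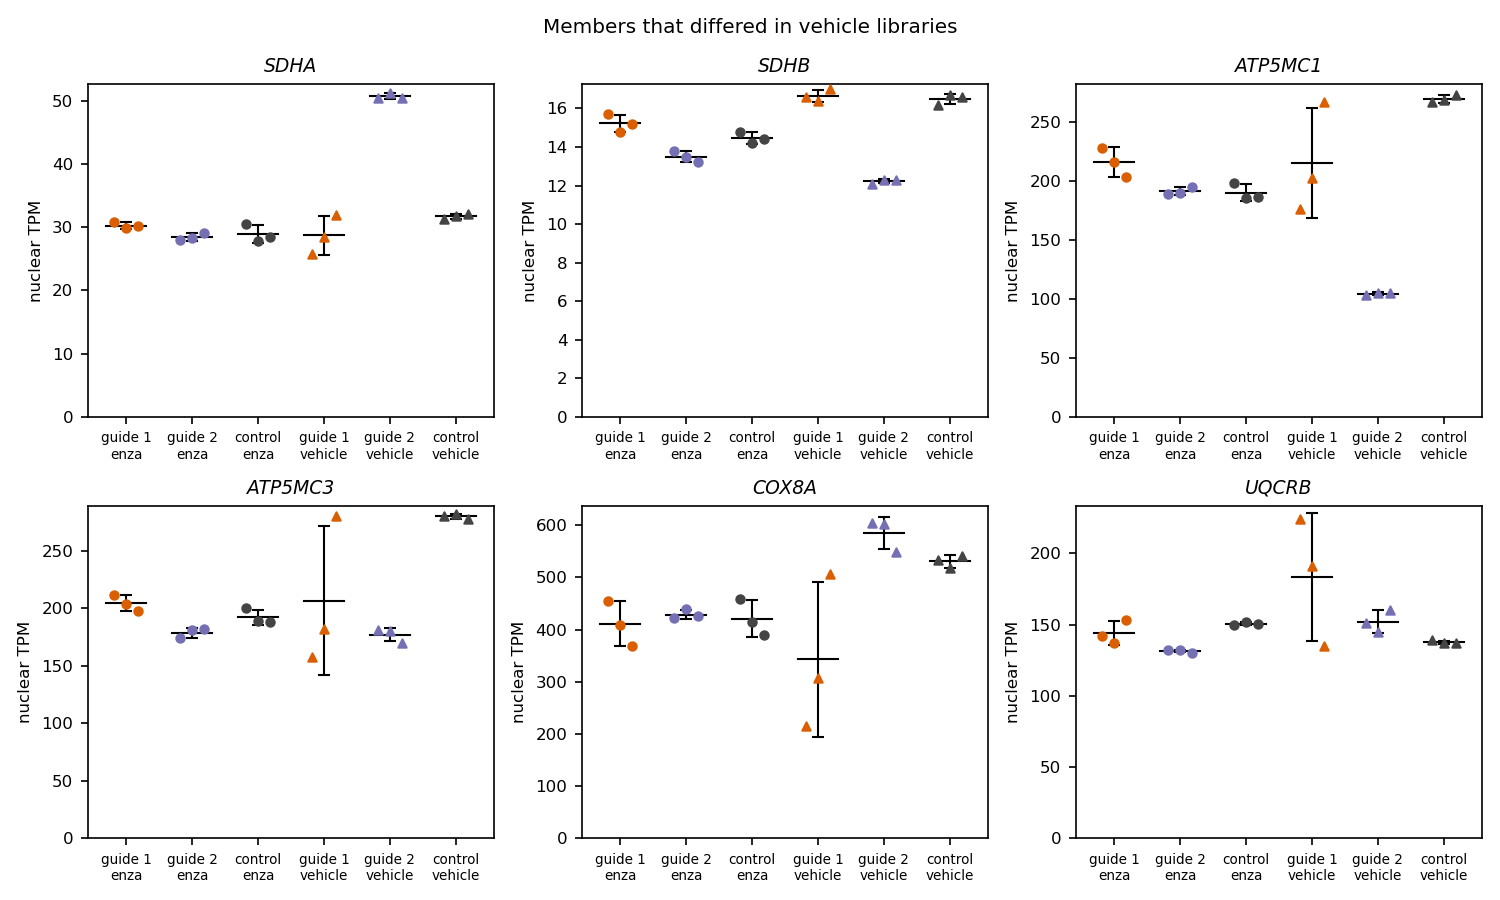
Nuclear TPM of 6 members (y axis, from 0) in each of the 18 libraries, by group (x axis). Circles are enzalutamide and triangles vehicle libraries, and lines and bars are the group mean ± SD (n = 3). The libraries labelled guide 2 in vehicle are highest for SDHA (50.5, 51.3 and 50.5) and lowest for ATP5MC1 (103, 105 and 105), and guide 1 in vehicle spans 216 to 506 for COX8A and 135 to 224 for UQCRB.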

How the data were processed

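Libraries were made with a stranded mRNA kit and sequenced as paired ends, per the labels' protocols. STAR and GRCh38 appear in the submitters' processing notes with no version; neither counter nor annotation is given in these sources. The deposited TPM table holds 37347 rows and 18 samples, per the file header. Of these rows, 37 mitochondrial rows, 10345 rows without a name and 69 rows of 3 symbols with 5 or more rows were left out, and 32 symbols with 2 to 4 rows were summed. Libraries were rescaled to 1000000 over nuclear rows. TPM keeps no depth, is relative within a library, and was not tested as counts. The 16067 genes that reached 1 nuclear TPM in 3 libraries were tested as log2(nuclear TPM + 1), a pseudocount of 1, with limma 3.58.1 in R 4.3.3. All 18 libraries were fitted with 6 group means (12 residual degrees of freedom) and a trended prior. Tests were two-sided, with Benjamini-Hochberg adjustment over all tested genes and a threshold of 0.05. The procedure was tested on simulated data drawn with the same spread in every group. That test does not bear on groups of unequal spread, such as the guide 1 vehicle libraries. Named members were the 4 largest called rises and falls of each group pair, 3 for interactions, with at least 5 nuclear TPM in the higher group, the highest and lowest of each complex, a fixed list of subunits (in part not reported here), and up to 3 genes per supporting list; other members named were chosen after their values were seen. Members and lists were chosen with earlier results of these data known. Alternatives changed the pseudocount, the filter, the scaling, the libraries fitted, the replicate block and the pseudogene rows. Tables and figures used Python 3.11.15, numpy 2.4.6, pandas 2.3.3 and matplotlib 3.10.9.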

Additional observations from a re-analysis of the deposited data

Results flagged for a closer look

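The drug response of these members differed between a guide and the control guide by limma's interaction test (difference of 2 log2 changes). For guide 1 there were 32 such members of 84, where 26.8% of all tested genes were called. Among them were NDUFB4 at 0.73, NDUFS3 at 0.59, ATP5MC3 at 0.57, ATP5IF1 at -0.44 and COX6C at -0.26 (0.11 on TPM as deposited). For guide 2 there were 43 of 84 (26.2% higher and 25.0% lower), fewer in proportion than the 63.2% of all tested genes called. Among them were ATP5MC1 at 1.37, NDUFB10 at 0.71, ATP5F1D at 0.67, ATP5IF1 at -0.86, COX6C at -0.75 and NDUFB1 at -0.70. Both counts changed with the scaling, as given above. The guide 2 values rest on vehicle libraries in which OGDHL was higher than control, against their label.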

How the results depend on the processing

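TPM keeps no depth, so low members such as COX7B2 and COX8C carry no stated precision, and 3 libraries per group limit every test. On TPM as deposited, members called were 8 for enzalutamide in control cells, 10 in guide 1 and 34 in guide 2, 77 for guide 1 and 24 for guide 2 in vehicle, 0 for each guide in enzalutamide, and 1 and 10 for the guide 1 and guide 2 interactions. Shares of all genes on this scale are given with each comparison above, and the cause of the differences was not tested. Fits of a comparison's own libraries gave 5 for the drug in guide 1, 0 for guide 1 in vehicle, 13 for guide 2 in enzalutamide and 11 for the guide 1 interaction. Replicate numbers were not used to pair libraries in the main fit. No 2 groups had all 3 correlations of same-number deviations over 0.1, a cut that cannot exclude pairing. Between control and guide 1 in enzalutamide they were 0.11, 0.05 and 0.09, and all 3 control libraries correlated best with their own number. Between control in vehicle and in enzalutamide, 0 did. With a replicate block in fits of a comparison's own libraries, calls were 0 for the drug in guide 1 and 0 for guide 1 in vehicle by limma (5 and 12 at an unadjusted p under 0.05), 44 for guide 1 in enzalutamide and 5 for the guide 1 interaction. Without a filter, guide 1 in vehicle gave 24, and median-of-ratios scaling gave 7 for guide 2 in enzalutamide. With guide 1 vehicle replicate 3 as the only library of its group, chosen after seeing the data, counts were 0 for guide 1 in vehicle, 41 for guide 1 in enzalutamide and 21 for its interaction. Leaving out each library in turn gave 36 to 63 calls for the drug in control cells, 21 to 56 in guide 1 and 46 to 67 in guide 2, 0 to 59 for guide 1 and 50 to 64 for guide 2 in vehicle, 16 to 36 and 2 to 12 for guides 1 and 2 in enzalutamide, and 17 to 56 and 37 to 55 for their interactions. The share of all genes called moved with the same settings, so these counts do not describe the members alone. For guide 1 in vehicle it was 0.972% without control vehicle replicate 1 and 56.7% without guide 1 vehicle replicate 3. For the guide 1 interaction it was 20.7% without guide 1 vehicle replicate 2 and 47.3% without guide 1 vehicle replicate 3. Shares not given with a comparison above are not reported here. Values that changed sign on TPM as deposited were, for the drug in guide 1, COX6A1 0.07, CYCS 0.02, NDUFB10 0.02 and UQCRB 0.02, for guide 1 in vehicle ATP5IF1 -0.17, NDUFA12 -0.19 and UQCRB -0.11, and COX6C 0.11 for the guide 1 interaction. With guide 1 vehicle replicate 3 alone they were, for the drug in guide 1, NDUFB11 -0.01, NDUFS3 -0.04 and UQCRB 0.09, and for guide 1 in vehicle NDUFA12 -0.02 and UQCRB -0.03.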
